A study of Rattus norvegicus with 4 samples.

Results

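The microtubule genes described here are the tubulins, the kinesin and cytoplasmic dynein motors and the main microtubule-binding proteins of the rat oligodendroglial line CG4. They were chosen by name from the table of 14410 listed genes: all names of the forms Kif, Tuba, Tubb, Tubg, Dync and Dynl, together with Map1a, Map1b, Map2, Map4, Map6, Map7, Mapt, the stathmins and the Tppp genes. The mitotic kinesins Kif11, Kif20a, Kif20b, Kif23, Kif2c and Kif4a, 6 genes in all, were left out. This gave 79 genes. The name form also took in Kif1bp, which encodes a kinesin-binding protein and not a motor, and the Tubgcp subunits of the gamma-tubulin ring complex.

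CG4 is a rat glial progenitor line that can form oligodendrocytes, the myelinating cells of the central nervous system. Phf8oe cells (wild type, Phf8+ GFP+) had received the retrovirus CAG-Phf8-IRES-GFP, and ctrl cells (wild type, GFP+) the retrovirus CAG-IRES-GFP, so that both groups carried a viral GFP cassette driven by the CAG promoter. Phf8 is a histone lysine demethylase. All cells had been grown with PDGF-AA and bFGF, sorted for GFP 2 days after transduction, expanded, and switched to SATO medium for 3 days of differentiation before total RNA was taken. Each group held 2 libraries labelled as biological replicates of this line. The labels do not say whether replicates came from separate transductions, so p-values measure only the spread between these libraries, which may be technical.

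Microtubules are hollow polymers of alpha- and beta-tubulin dimers, nucleated by ring complexes of gamma-tubulin. Most kinesins carry cargo towards the plus ends of microtubules, and cytoplasmic dynein carries it towards the minus ends. Structural microtubule-associated proteins (MAPs) stabilise the polymer, whereas stathmins bind free tubulin dimers and favour disassembly. In oligodendrocytes microtubules extend through the branching processes and carry Mbp messenger RNA to the forming myelin sheath.

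The deposited values were counts scaled per library, written below as normalized counts. They summed to between 39945215 and 41149255 per library. Reads counted over the listed genes were estimated from which whole numbers the values skipped or held too often. These reads were fewest in Phf8oe replicate 2, at about 28400000, and most in ctrl replicate 1, at about 47800000. Values were not divided by transcript length, so levels are compared between groups for each gene and not between genes. Phf8 itself had 5650 and 10796 normalized counts in Phf8oe and 2026 and 2205 in ctrl, a log2 fold change of 1.89 (SE 0.35, n = 2 per group, limma adjusted p = 0.0631), so it lay higher in both Phf8oe libraries without passing the threshold. It passed without robust moderation (adjusted p = 0.0194 in limma). On leaving out 1 Phf8oe library the spread came from the ctrl libraries alone, so for single genes only effect sizes are given from those fits. Its log2 fold change was 2.35 without Phf8oe replicate 1. Without a ctrl library it did not pass (adjusted p = 0.327 and 0.177 in limma). The 10 oligodendrocyte markers searched were all listed, and their summed normalized counts were 710235 and 654521 in Phf8oe and 461013 and 453832 in ctrl. Mbp was the largest part of that sum, with 340486 and 308875 in Phf8oe and 184442 and 173338 in ctrl. Of the 10 markers 4 rose and 6 did not pass, and Cldn11, Opalin and Myrf overlapped between the groups. Of all genes tested 2.99% rose and 4.65% fell. Of 7 listed astrocyte markers 2 fell and 2 rose. Gfap, which made up most of their sum, fell, with 10834 and 19613 in Phf8oe and 79141 and 80736 in ctrl, and so did Clu, whereas Aldh1l1 and Slc1a3 rose. Progenitor markers, 6 of 6 listed with 2 that fell, summed to 56434 and 47065 in Phf8oe and 74428 and 74730 in ctrl. Of 6 microglial markers 3 were listed and none passed in limma, with 0 at an unadjusted p under 0.05. Of 6 fibroblast and pericyte markers 1 was listed, Col1a1, which fell, with 121 and 164 in Phf8oe and 454 and 437 in ctrl. Of 5 Schwann cell markers, all listed, only Egr2 fell and none rose. Mitochondrial transcripts took 5.36% and 4.77% of normalized counts in Phf8oe and 3.69% and 3.63% in ctrl. The part of any of these in the values below was not tested. In bulk RNA, fewer cells of a type and less RNA per cell cannot be told apart.

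The microtubule genes together took 2.35% and 2.28% of all normalized counts in Phf8oe and 2.29% and 2.32% in ctrl. All 79 had passed the filter on low values. In limma with Benjamini-Hochberg adjustment over all 14368 genes tested and a threshold of 0.05, 6 of the 79 differed between the groups, 2 higher and 4 lower in Phf8oe. That is 7.59% of the microtubule genes, against 7.64% of all genes tested, so the share was near the background. By direction it was 2.53% higher and 5.06% lower, against 2.99% and 4.65% of all genes. Those that fell were the kinesins Kif5c and Kif13b, the dynein heavy chain Dync1h1 and the beta-tubulin Tubb2a, and those that rose were the stathmins Stmn4 and Stmn1. The median log2 fold change of the 79 was -0.04, against 0.0031 for all genes tested, and they ranged from -1.24 to 0.94.

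The value ranges of the groups did not overlap in 51 of the 79 genes, or 64.6%, against 57.6% of all genes tested. Phf8oe lay higher in 23 of these and lower in 28, or 29.1% and 35.4%, against 28.9% and 28.7% of all genes. An unadjusted p under 0.05 was found for 26 of the 79, or 32.9%, against 26.3% of all genes.

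PHF8 is known to bind at the promoters of active genes, and for this reason the promoters of genes that passed are shown. Of the 79 genes 60 had an entry in the table of RefSeq promoters for the GRCr8 assembly, among them 4 of the 6 that passed. That assembly is not the build of the counts, and its gene starts were not mapped in these cells. The 250 bases before the annotated start are printed below, all on the plus strand, at chr3:54441057-54441306 for Kif5c, chr6:135436228-135436477 for Dync1h1, chr17:31001936-31002185 for Tubb2a and chr5:151964929-151965178 for Stmn1. Capitals mark matches on either strand to the GC box GGGCGG, the cyclic AMP response element TGACGTCA, the TATA box TATAAA and a ZNF143 binding element, which reads ACTACAA, any base, then TCCC.
Kif5c: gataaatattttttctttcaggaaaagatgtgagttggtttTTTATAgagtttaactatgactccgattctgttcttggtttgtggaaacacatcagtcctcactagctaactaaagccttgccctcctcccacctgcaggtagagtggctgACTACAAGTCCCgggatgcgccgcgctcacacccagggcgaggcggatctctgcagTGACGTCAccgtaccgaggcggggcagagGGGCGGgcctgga
Dync1h1: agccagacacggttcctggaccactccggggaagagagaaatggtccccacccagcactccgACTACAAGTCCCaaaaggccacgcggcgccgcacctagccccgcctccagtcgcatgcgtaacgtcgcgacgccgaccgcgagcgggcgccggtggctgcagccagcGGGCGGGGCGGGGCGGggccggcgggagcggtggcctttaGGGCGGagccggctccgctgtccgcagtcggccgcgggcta
Tubb2a: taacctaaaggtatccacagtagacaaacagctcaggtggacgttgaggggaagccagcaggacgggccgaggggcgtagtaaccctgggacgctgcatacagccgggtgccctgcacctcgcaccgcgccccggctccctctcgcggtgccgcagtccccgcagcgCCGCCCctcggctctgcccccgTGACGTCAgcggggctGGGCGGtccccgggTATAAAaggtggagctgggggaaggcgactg
Stmn1: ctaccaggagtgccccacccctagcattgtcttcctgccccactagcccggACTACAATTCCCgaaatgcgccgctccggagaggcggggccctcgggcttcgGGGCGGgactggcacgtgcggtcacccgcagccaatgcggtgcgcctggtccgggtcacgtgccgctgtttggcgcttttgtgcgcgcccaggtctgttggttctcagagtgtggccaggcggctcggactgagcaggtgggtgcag
The GC box and the TATA box are general promoter elements, and the ZNF143 element was added after these sequences had been read. It begins 98 bases before the start of Kif5c, 188 before that of Dync1h1 and 199 before that of Stmn1. Since 3 of the 4 printed promoters led to the search, they do not count towards its share. Among the other 56 promoters of microtubule genes it was found in 2, those of Dync1i2 and Tubb5, or 3.57%, and in all 33469 promoters of the table in 0.902%. Of the genes that hold it, Kif5c and Dync1h1 fell and Stmn1 rose. The cyclic AMP element was in 4 of 60, or 6.67%, against 1.59% of all. Those promoters were of Kif15, Kif17 and the printed Kif5c and Tubb2a. It begins 61 bases before the start of Tubb2a and 42 before that of Kif5c. GC boxes were in 68.3% of these 60 promoters and in 30.5% of all, and 3 of the 4 matches in Dync1h1 overlap one another. The TATA box was in 13.3% of the 60 and 12.9% of all, the CCAAT box (CCAAT) in 38.3% and 34%, and the E box CACGTG in 3.33% and 5.59%. The CCAAT and E boxes are not marked. The promoters of the 60 were also richer in G and C, with a median of 63.2% against 51.2% for all, a difference that motif counts share. The 33469 promoters were not limited to the 14368 genes tested, whereas the 60 all belong to tested genes, so the 2 sets are unlike.

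Kif5c, a heavy chain of kinesin-1 known mainly as a neuronal motor for vesicles and messenger RNA granules, had 7991 and 7070 normalized counts in Phf8oe and 12943 and 11561 in ctrl. Both Phf8oe libraries lay below both ctrl libraries, by a gap wider than the difference between replicates. Kif5c fell 1.63-fold (log2 fold change -0.70, SE 0.11, n = 2 per group, limma adjusted p = 0.00929). The other kinesin-1 heavy chains lay on the same side without passing the threshold. Kif5b, the widely expressed form, had 5646 and 5481 in Phf8oe and 7378 and 6190 in ctrl (log2 fold change -0.28, adjusted p = 0.151 in limma). Kif5a, the other neuronal form, had 1218 and 981 in Phf8oe and 1658 and 1296 in ctrl (log2 fold change -0.42, adjusted p = 0.134 in limma). Phf8oe lay wholly below ctrl in all 3 genes, as it did in 28.7% of all genes tested. For Kif5a and Kif5b the ctrl libraries differed from each other by 1.28-fold and 1.19-fold. Summed over the 3 genes, normalized counts were 14855 and 13532 in Phf8oe and 21979 and 19047 in ctrl.

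Kif13b, a kinesin-3 motor known to bind the scaffold protein Dlg1, had the smallest p of the 79 genes. Its normalized counts were 1550 and 1463 in Phf8oe and 2380 and 2446 in ctrl, and replicates of a group differed by at most 1.06-fold. Kif13b fell 1.6-fold (log2 fold change -0.68, SE 0.10, n = 2 per group, limma adjusted p = 0.00838). The remaining 6 kinesin-3 genes all had log2 fold changes below 0 and none passed. Kif13a, a recycling endosome motor, had 3153 and 3172 in Phf8oe and 3976 and 3642 in ctrl, groups that did not overlap. Kif1b, required in zebrafish for the transport of Mbp messenger RNA in oligodendrocytes, had 22196 and 20871 in Phf8oe and 26023 and 24334 in ctrl (log2 fold change -0.23, adjusted p = 0.207 in limma). Kif1c, a motor of vesicle transport, had 6113 and 5706 in Phf8oe and 7417 and 6468 in ctrl, and both groups again stood apart. Kif1a, a motor of synaptic vesicle precursors, had 27885 and 21869 in Phf8oe and 29510 and 27747 in ctrl, so that Phf8oe replicate 1 lay within the ctrl range. Kif14, a kinesin of cytokinesis, also overlapped, with 466 and 503 in Phf8oe and 489 and 594 in ctrl. The endosomal motor Kif16b was low in every library, with 24 and 20 in Phf8oe and 39 and 44 in ctrl (log2 fold change -0.89, SE 0.33, adjusted p = 0.129 in limma).

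Over kinesin-1 and kinesin-3 together, 10 of 10 log2 fold changes were below 0, with a median of -0.27, and in 8 of the 10 genes Phf8oe lay wholly below ctrl, as it did in 28.7% of all genes tested. This pooling was chosen after the values were seen, so the counts are a description only. It held 2 genes that fell and 8 that did not pass.

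**Figure D1:**
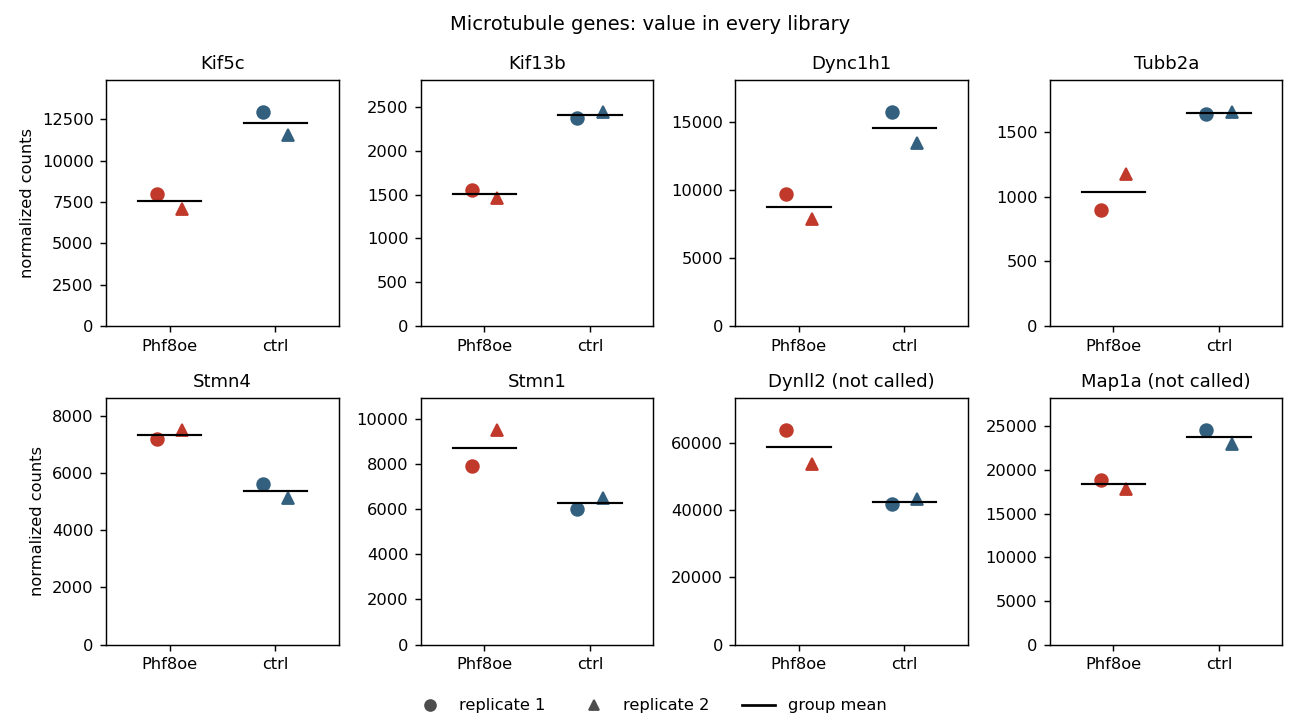
Normalized counts of 8 microtubule genes in each library (vertical axes, linear and from 0), with Phf8oe left and ctrl right; circles are replicate 1, triangles replicate 2 and bars group means. In all 8 genes, including Dynll2 and Map1a, which did not pass the threshold, the groups do not overlap, as in 57.6% of all genes tested.

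Cytoplasmic dynein is built on a heavy chain dimer that holds the motor, with intermediate, light intermediate and light chains that bind cargo. Dync1h1, the heavy chain of cytoplasmic dynein-1, had 9683 and 7861 normalized counts in Phf8oe and 15755 and 13433 in ctrl. The groups did not overlap, and replicates differed by 1.23-fold in Phf8oe and 1.17-fold in ctrl. Dync1h1 fell 1.67-fold (log2 fold change -0.74, SE 0.13, n = 2 per group, limma adjusted p = 0.0158), the only one of the 7 genes for these larger chains to pass. An unadjusted p under 0.05 in limma was found for 6 of the 7, 4 lower and 2 higher in Phf8oe, beside 26.3% of all genes tested. The light intermediate chain gene Dync1li2 had 6847 and 6325 in Phf8oe and 9030 and 7310 in ctrl (adjusted p = 0.152 in limma). The intermediate chain gene Dync1i2 had 4715 and 4892 in Phf8oe and 5772 and 5694 in ctrl (log2 fold change -0.26, adjusted p = 0.128 in limma). Its relative Dync1i1, a neuronal intermediate chain, stood on the other side, with 132 and 144 in Phf8oe and 90 and 77 in ctrl (log2 fold change 0.72, SE 0.23, adjusted p = 0.0903 in limma). For both intermediate chains the groups did not overlap, in opposite directions. Dync1li1 had 3310 and 3558 in Phf8oe and 3428 and 3519 in ctrl, and the 95% interval of its log2 fold change ran from -0.24 to 0.21.

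Dynein-2 returns cargo along the shaft of cilia. Its heavy chain gene Dync2h1 had 648 and 653 in Phf8oe and 819 and 798 in ctrl, and its light intermediate chain gene Dync2li1 had 797 and 891 in Phf8oe and 573 and 742 in ctrl. Neither passed (adjusted p = 0.148 and 0.171 in limma), and the groups stood apart in opposite directions.

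Among 5 dynein light chain genes none passed in limma, and 1 had an unadjusted p under 0.05. Dynll2, whose small protein also serves as a hub in other complexes, came closest, with 63674 and 53612 normalized counts in Phf8oe and 41723 and 43218 in ctrl. Both Phf8oe libraries were above both ctrl libraries. With a log2 fold change of 0.46 (SE 0.12, n = 2 per group), its adjusted p of 0.0503 in limma was just outside the threshold. It passed with limma-voom on estimated reads (adjusted p = 0.044) and with TMM-type scaling (adjusted p = 0.0484 in limma). It also passed with equal totals, upper quartile scaling and a pseudocount of 5 (adjusted p = 0.0453, 0.0382 and 0.0491 in limma). Crossed pairing, added after seeing the data, passed it too. Under the other settings that kept all libraries it did not pass. On leaving out 1 library its log2 fold change ran from 0.34 to 0.58. Its near relative Dynll1 had 16277 and 19503 in Phf8oe and 16387 and 17513 in ctrl, ranges that overlapped. Dynlt1, Dynlt3 and Dynlrb1 had log2 fold changes between -0.16 and -0.08.

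**Figure D2:**
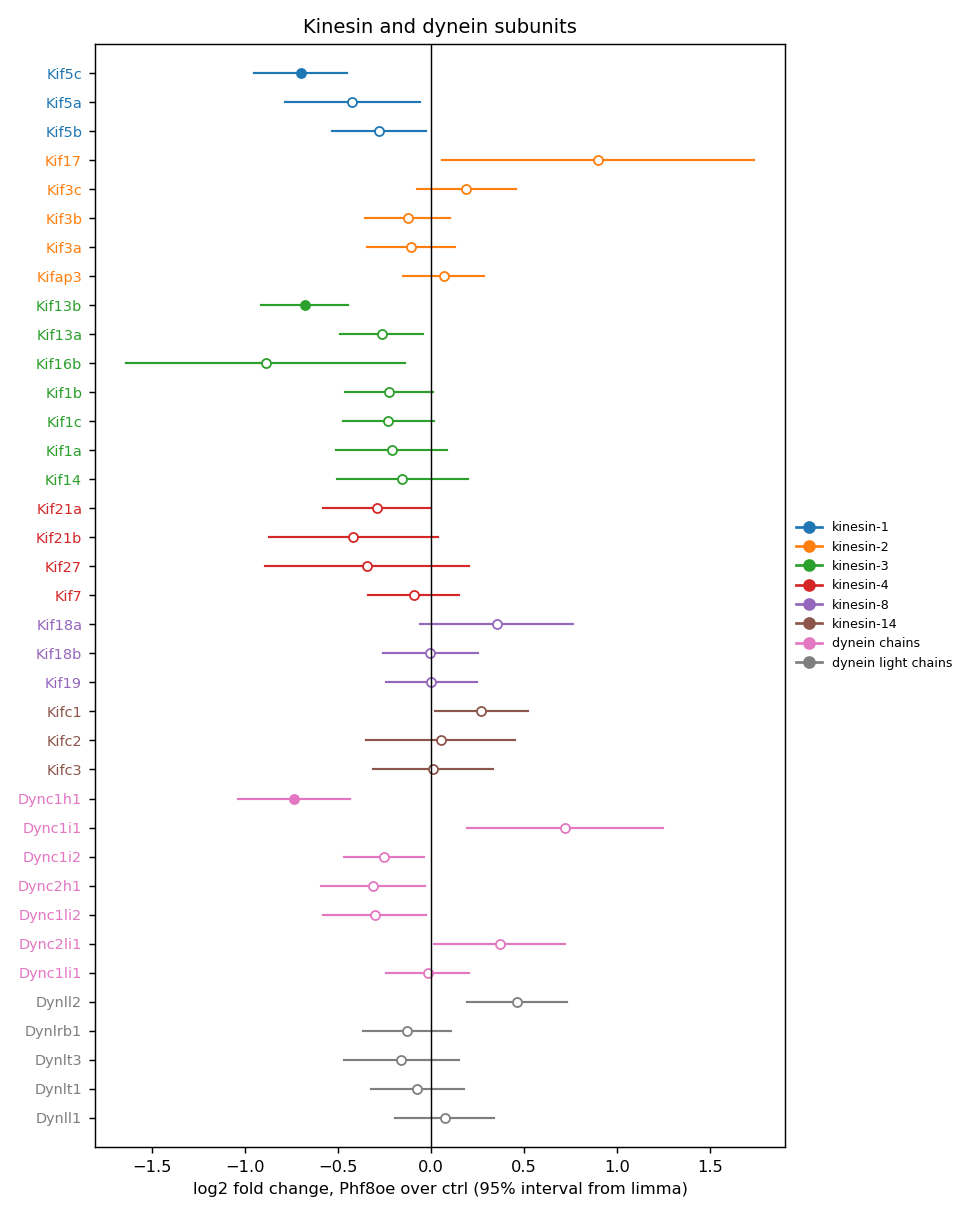
Log2 fold change of Phf8oe over ctrl (horizontal axis) with its 95% interval from limma for kinesins of 6 families and all dynein subunits, coloured by family. Filled points passed the threshold: Kif5c at -0.70, Kif13b at -0.68 and Dync1h1 at -0.74, and every gene of kinesin-1, kinesin-3 and kinesin-4 lies left of 0.

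The beta-tubulins are near-identical proteins that differ mostly in their tails, and cells of different types use different mixtures. Tubb2a, one of the neural isotypes, had 897 and 1175 normalized counts in Phf8oe and 1634 and 1654 in ctrl. The ctrl libraries were almost equal while the Phf8oe libraries differed by 1.31-fold, and both lay below ctrl. Tubb2a fell 1.6-fold (log2 fold change -0.68, SE 0.14, n = 2 per group, limma adjusted p = 0.026). Its closest paralog Tubb2b had 69964 and 60871 in Phf8oe and 65611 and 67380 in ctrl (log2 fold change -0.03, 95% interval -0.29 to 0.23), so the groups overlapped. The sources used here do not say how reads that match both genes were assigned, and the Tubb2a value is uncertain for that reason.

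Tubb3, the isotype used as a marker of neurons, and Tubb6 had the most negative log2 fold changes of the beta-tubulins but varied between replicates. Tubb3 had 1893 and 3353 in Phf8oe and 7458 and 4778 in ctrl (log2 fold change -1.24, SE 0.40, adjusted p = 0.173 in limma). Tubb6 had 1423 and 2515 in Phf8oe and 3847 and 3243 in ctrl (log2 fold change -0.90, SE 0.30, adjusted p = 0.162 in limma). For both genes Phf8oe lay wholly below ctrl, and Phf8oe replicate 1 was the lowest library, with replicate 2 higher by 1.77-fold in each. Without Phf8oe replicate 1 the log2 fold change of Tubb6 was -0.49, and without Phf8oe replicate 2 it was -1.31.

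Beside these values, 13 neuronal markers, all of them listed, summed to 8121 and 7967 in Phf8oe and 16643 and 12085 in ctrl. Of these 13 only Nefm, a neurofilament gene, passed, and it fell, as did 4.65% of all genes tested. Much of the sum came from Syt1, with 4146 and 3320 in Phf8oe and 5331 and 4564 in ctrl, and from the neurofilament gene Nefl, with 573 and 1056 in Phf8oe and 4843 and 2704 in ctrl. Rbfox3, a defining marker of mature neurons, had 28 and 6 in Phf8oe and 27 and 38 in ctrl. No neuronal marker was at 0 in any library, but no listed gene had a mean below 6. The absence of zeros thus follows largely from which genes are listed. Elavl3 and Elavl4, which encode neuronal RNA-binding proteins, had log2 fold changes above 0, and Elavl3 had 1572 and 1440 in Phf8oe and 1230 and 1061 in ctrl. The part of these markers in the tubulin values was not tested.

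Of the remaining beta-tubulins, Tubb4a, the isotype associated with myelinating oligodendrocytes, had 49663 and 51191 in Phf8oe and 40745 and 42133 in ctrl. Replicates differed by at most 1.03-fold and the groups did not overlap, but the log2 fold change of 0.28 (SE 0.10) did not pass (adjusted p = 0.124 in limma). Tubb5 had 44935 and 46389 in Phf8oe and 37650 and 41968 in ctrl, and Tubb4b had 12253 and 13756 in Phf8oe and 10536 and 11714 in ctrl. For both, Phf8oe lay above ctrl, by at most 1.17-fold in the fit, and neither passed. Tubb1, the isotype of platelets, had at most 18 normalized counts in any library. Within the summed beta-tubulin counts, Tubb3 took 1.05% and 1.87% in Phf8oe and 4.45% and 2.76% in ctrl, whereas Tubb4a took 27.4% and 28.6% in Phf8oe and 24.3% and 24.4% in ctrl. These shares move with one another by construction.

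None of 4 alpha-tubulin genes passed in limma, and 0 had an unadjusted p under 0.05. Tuba1a, the main isotype of the developing nervous system, had 256985 and 240586 in Phf8oe and 223316 and 240261 in ctrl (log2 fold change 0.10, 95% interval -0.16 to 0.37). The lower Phf8oe library and the higher ctrl library were almost equal. Tuba1b, a widely expressed isotype, had 66981 and 62844 in Phf8oe and 52949 and 57364 in ctrl (log2 fold change 0.24, adjusted p = 0.212 in limma). Tuba4a had 349 and 446 in Phf8oe and 242 and 338 in ctrl, while Tuba1c overlapped between the groups, with 331 and 387 in Phf8oe and 373 and 368 in ctrl. Tuba1a, Tuba1b and Tuba1c are close paralogs, and on GRCr8 Tuba1c overlaps 13 listed genes, Tuba1a and Tuba1b among them, so the split of shared reads is uncertain.

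**Figure D3:**
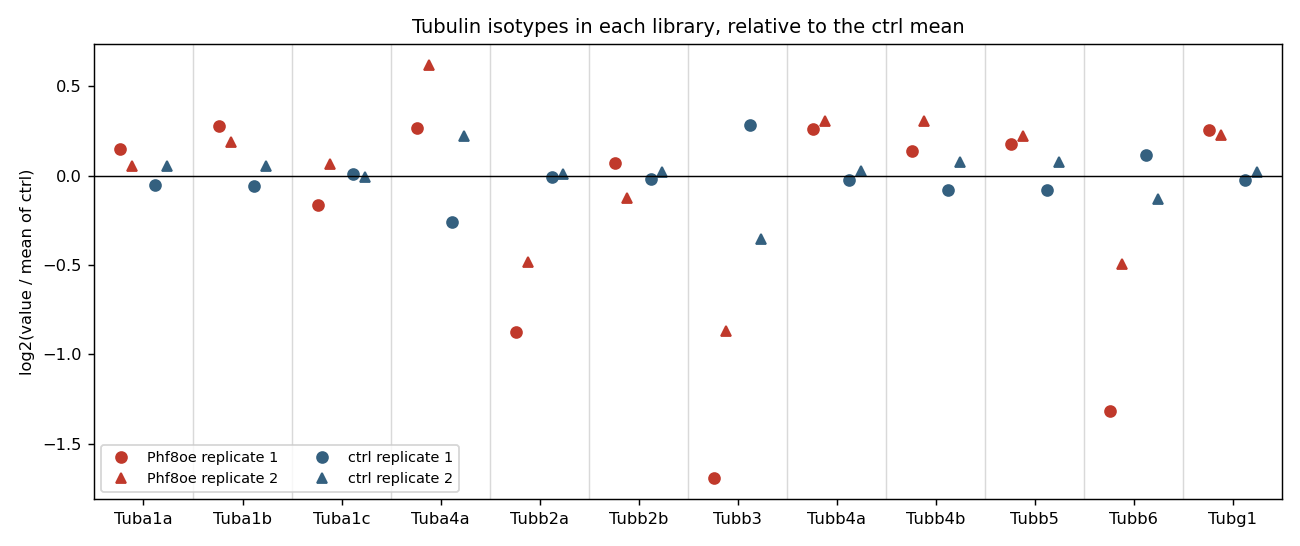
Each library's value of 12 tubulin genes as log2 of its ratio to the ctrl mean (vertical axis); red marks are Phf8oe, blue marks ctrl, circles replicate 1 and triangles replicate 2. Tubb2a, Tubb3 and Tubb6 lie below ctrl in both Phf8oe libraries, whereas Tubb4a, Tubb5 and Tubg1 lie slightly above.

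The gamma-tubulin group of 7 genes, which nucleates microtubules, held no call in limma and 1 gene with an unadjusted p under 0.05. Tubg1, the main gamma-tubulin, had 4416 and 4324 normalized counts in Phf8oe and 3642 and 3753 in ctrl (log2 fold change 0.24, SE 0.10, adjusted p = 0.147 in limma). The groups stood apart. Tubg2 had at most 11 normalized counts in any library. Among the ring complex subunits, Tubgcp3 had 4024 and 3880 in Phf8oe and 3660 and 3649 in ctrl, and Tubgcp6 had 2239 and 1947 in Phf8oe and 2232 and 2271 in ctrl. The log2 fold changes of Tubgcp2, Tubgcp3, Tubgcp4, Tubgcp5 and Tubgcp6 lay between -0.17 and 0.11.

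Of the stathmins, 2 of 3 rose, beside 2.99% of all genes tested. Stmn4, a membrane-bound stathmin of the nervous system, had 7193 and 7489 normalized counts in Phf8oe and 5620 and 5124 in ctrl. Stmn4 rose 1.37-fold (log2 fold change 0.45, SE 0.10, n = 2 per group, limma adjusted p = 0.0309), with replicates within 1.1-fold of each other. Stmn1, the cytosolic stathmin found in progenitors and dividing cells, had 7928 and 9495 in Phf8oe and 6019 and 6504 in ctrl. Stmn1 rose 1.39-fold (log2 fold change 0.47, SE 0.12, n = 2 per group, limma adjusted p = 0.0419). Its call was lost without robust variance moderation (adjusted p = 0.0642 in limma). Without Phf8oe replicate 2 its log2 fold change was 0.34. Stmn3 was low and uneven, with 75 and 27 in Phf8oe and 55 and 59 in ctrl, and on the GRCr8 assembly it overlaps Rtel1, a gene with far more counts. The sources used here do not say whether counting used strand.

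Of 7 structural MAP genes none passed in limma, and 2 had an unadjusted p under 0.05. Map1a, a large MAP of mature neurons that also occurs in oligodendrocytes, had 18820 and 17856 in Phf8oe and 24541 and 22976 in ctrl. The groups stood apart, at a log2 fold change of -0.37 (SE 0.10), with an adjusted p of 0.0587 in limma. It passed when libraries were scaled to equal totals (adjusted p = 0.0452 in limma) and with crossed pairing, added after seeing the data. Under the other settings that kept all libraries Map1a did not pass. On leaving out 1 library its log2 fold change ran from -0.42 to -0.33. Map1b, the MAP of growing processes, had 28980 and 30659 in Phf8oe and 38277 and 31693 in ctrl. Map6, which makes microtubules resistant to cold, had 5187 and 5594 in Phf8oe and 7071 and 5989 in ctrl. Map4, the widely expressed MAP, had 11988 and 12284 in Phf8oe and 13947 and 13609 in ctrl. These 3 genes again lay wholly below ctrl, as did 28.7% of all genes tested, by at most 1.21-fold in the fit.

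Mapt, which encodes tau, stood on the other side, with 15424 and 12838 in Phf8oe and 11632 and 12424 in ctrl (log2 fold change 0.23, adjusted p = 0.254 in limma). Map7, a recruiter of kinesin-1 to microtubules, had 15814 and 14102 in Phf8oe and 13770 and 13127 in ctrl, also higher without passing. Map2, the dendritic MAP, overlapped between the groups, with 8319 and 7550 in Phf8oe and 6951 and 8226 in ctrl.

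The Tppp proteins bundle microtubules, and Tppp is known for nucleating microtubules at Golgi outposts in oligodendrocytes. Tppp had 2325 and 1783 normalized counts in Phf8oe and 2043 and 2364 in ctrl, so the groups overlapped (log2 fold change -0.11, 95% interval -0.44 to 0.22). Tppp3 had 4265 and 6311 in Phf8oe and 5817 and 5929 in ctrl. Its Phf8oe libraries fell on either side of ctrl. Tppp2 had at most 25 in any library.

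The remaining 24 kinesins held no call in limma, and 4 of them had an unadjusted p under 0.05. In kinesin-2, a family of anterograde motors of cilia and vesicles, Kif17 had 1605 and 983 in Phf8oe and 546 and 832 in ctrl (log2 fold change 0.90, SE 0.32, adjusted p = 0.169 in limma). Kif17 was higher in both Phf8oe libraries, but replicates differed by 1.63-fold in Phf8oe and 1.52-fold in ctrl. On leaving out 1 library the log2 fold change of Kif17 ran from 0.54 to 1.25. The heterotrimer genes Kif3a, Kif3b and Kifap3 had log2 fold changes between -0.13 and 0.07, and Kif3c, whose 95% interval ran from -0.07 to 0.45, overlapped between the groups.

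Kinesin-4 genes had log2 fold changes below 0 throughout. Kif21a, a motor that also restrains microtubule growth, had 30180 and 32161 in Phf8oe and 42555 and 34177 in ctrl (log2 fold change -0.29, adjusted p = 0.186 in limma). Kif21b had 3221 and 2149 in Phf8oe and 3458 and 3577 in ctrl, and Phf8oe replicate 2 was the lowest library. Its log2 fold change was -0.71 without Phf8oe replicate 1, and -0.13 without Phf8oe replicate 2. Kif7, a regulator of Hedgehog signalling at the tip of cilia, had 2189 and 1926 in Phf8oe and 2197 and 2188 in ctrl.

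Some kinesins with large counts stood near no change. Kif19, which in mouse shortens ciliary microtubules, had 22027 and 23330 in Phf8oe and 23986 and 21432 in ctrl (log2 fold change -0.00025, 95% interval -0.25 to 0.24). On GRCr8 Kif19 overlaps Btbd17, whose mean normalized counts were 5930 in Phf8oe and 3642 in ctrl. Kifc3, a minus-end kinesin, had 37988 and 29139 in Phf8oe and 31213 and 34962 in ctrl (95% interval -0.31 to 0.33). The microtubule depolymerase Kif2a had 1500 and 1450 in Phf8oe and 1517 and 1513 in ctrl (95% interval -0.28 to 0.20). Kif26a, which lacks motor activity, had 6141 in Phf8oe replicate 1, against 3526 in Phf8oe replicate 2 and 3552 and 4076 in ctrl. Without Phf8oe replicate 2 its log2 fold change was 0.69, so that value rested on a lone library.

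The scarcest kinesins, Kif6, Kif9 and Kif12, had at most 47 normalized counts in any library. Kif12 had 23 and 37 in Phf8oe and 12 and 18 in ctrl, the highest log2 fold change of the 79 genes at 0.94 (SE 0.41, adjusted p = 0.188 in limma). Kif24, Kif26b and Kif27 lay between 75 and 166 in all libraries, and Kif27 alone of these had groups that did not overlap, lower in Phf8oe. Kifc2 had 2296 and 1590 in Phf8oe and 1828 and 1857 in ctrl, its Phf8oe libraries on either side of ctrl. The same held for the kinesin-binding protein gene Kif1bp, with 2118 and 2430 in Phf8oe and 2303 and 2303 in ctrl.

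Several kinesins that serve the spindle remained within the chosen names. Kifc1 had 1729 and 1921 in Phf8oe and 1468 and 1556 in ctrl, Kif22 had 2063 and 2066 in Phf8oe and 1681 and 1852 in ctrl, and Kif18a had 307 and 323 in Phf8oe and 223 and 272 in ctrl. In these 3 genes Phf8oe lay above ctrl, as in 28.9% of all genes tested, without passing (adjusted p = 0.163, 0.214 and 0.252 in limma). Kif15, a partner of the spindle motor Kif11, had 593 and 629 in Phf8oe and 552 and 570 in ctrl. Kif18b overlapped between the groups, with 1343 and 1352 in Phf8oe and 1279 and 1430 in ctrl. The 6 mitotic kinesins left out also held no call in limma, 2 having an unadjusted p under 0.05, with 6 of 6 log2 fold changes above 0 and a median of 0.21. Of 21 listed proliferation genes 2 rose, Cdc20 and Birc5, and none fell, beside 2.99% and 4.65% of all genes tested. The median log2 fold change of the 21 genes was 0.31. Their summed normalized counts were 43472 and 48042 in Phf8oe and 35086 and 40805 in ctrl. Whether the level of Stmn1, Tubg1 and the spindle kinesins follows the number of dividing cells was not tested.

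Related genes outside the chosen names were counted from lists, to be read beside 2.99% of all genes tested that rose and 4.65% that fell. Among 25 listed dynactin subunits and dynein regulators, 1 fell and 24 did not pass. The one that fell was Ninl, a centrosomal protein related to ninein, with 2989 and 2367 in Phf8oe and 9756 and 9547 in ctrl (log2 fold change -1.86, SE 0.12, limma adjusted p = 0.000282). The dynactin subunit gene Dctn1 had 16670 and 18311 in Phf8oe and 22354 and 20725 in ctrl and did not pass (adjusted p = 0.114 in limma). Among 18 listed genes of a list made for kinesin light chains and cargo adaptors, Dennd4a fell (log2 fold change -0.46) and 17 did not pass. That list was wider than its name, and Dennd4a is not an established kinesin adaptor. The kinesin light chain gene Klc1, a partner of the Kif5 heavy chains, had 12323 and 10679 in Phf8oe and 14601 and 13936 in ctrl (log2 fold change -0.31, adjusted p = 0.109 in limma).

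Of 35 listed plus-end and lattice regulators, 5 fell, none rose and 30 did not pass. The share that fell was 5 of 35, beside 4.65% of all genes tested. Dclk1, a doublecortin-like kinase that binds microtubules, had 6509 and 9671 in Phf8oe and 19074 and 18507 in ctrl (log2 fold change -1.24, limma adjusted p = 0.015). The spectraplakins, giant linkers of actin and microtubules, both fell. Dst had 9483 and 10364 in Phf8oe and 18698 and 15602 in ctrl (limma adjusted p = 0.00824), and Macf1 had 35128 and 37144 in Phf8oe and 49910 and 48278 in ctrl (limma adjusted p = 0.0374). Camsap2, which caps minus ends, fell by 0.53 on the log2 scale, and Clip4 by 1.00.

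Of 20 listed tubulin folding genes, Vbp1, a prefoldin subunit, rose (log2 fold change 0.46) and Tbcc, a cofactor of dimer assembly, fell (log2 fold change -0.70), and 18 did not pass. None of 24 listed tubulin-modifying and severing enzymes passed in limma, though 3 had an unadjusted p under 0.05. Closest was Sirt2, a tubulin deacetylase of oligodendrocytes, with 64571 and 56748 in Phf8oe and 43042 and 46438 in ctrl (log2 fold change 0.44, adjusted p = 0.053 in limma). The median log2 fold changes of the lists ran from -0.12 for the plus-end regulators to 0.31 for the proliferation genes.

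**Figure D4:**
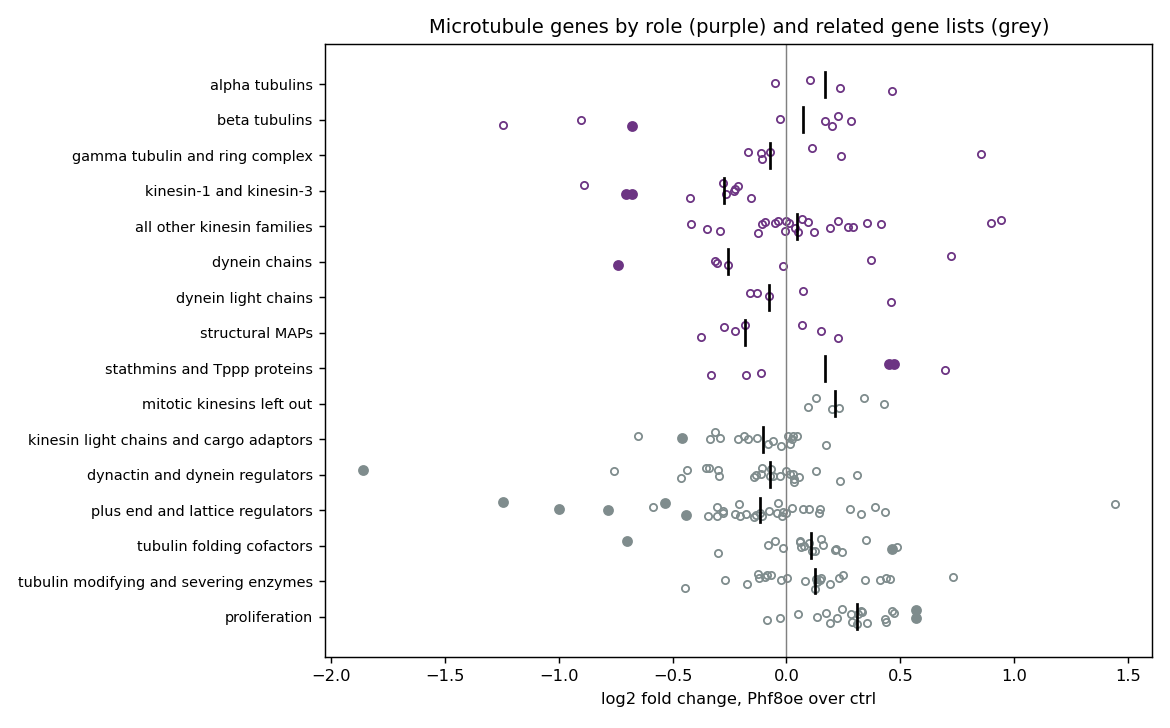
Log2 fold change of Phf8oe over ctrl (horizontal axis) for each microtubule gene by role (purple) and for each gene of the related lists (grey); filled points passed the threshold and bars are medians. Kinesin-1 and kinesin-3 centre on -0.27 and the proliferation list on 0.31, while the alpha-tubulins centre on 0.17.

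The direction of the values moved with gene size. Mitochondrial transcripts, whose share is given above, also separated the groups. When tested genes placed on the GRCr8 assembly were ranked by the span of the gene, introns included, and divided into 4 equal parts, the median log2 fold change over all genes was 0.08 in the shortest part and -0.12 in the longest. Among the microtubule genes it was 0.14 over the 20 in the shortest part and -0.15 over the 27 in the longest. Kif5c, Kif13b and Dync1h1, which fell, were all in the longest part. The shortest part held Stmn1, which rose, and Tubb2a, which fell against the direction of that part. Stmn4, which rose, was in the part next to the shortest. The part of gene or transcript size in these values was not tested.

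All 6 calls needed both ctrl libraries. Without ctrl replicate 1 or without ctrl replicate 2 none of the 79 genes passed, and 9 and 20 had an unadjusted p under 0.05. The adjusted p-values in limma of the 6 genes then lay between 0.162 and 0.375 and between 0.0627 and 0.192. In those fits the lone ctrl library is assumed to vary as the Phf8oe libraries do. Without Phf8oe replicate 1 the log2 fold changes of Kif1a, Kif5a and Map1a were -0.39, -0.58 and -0.41. That of Tppp3 was -0.46 without Phf8oe replicate 2. On leaving out a Phf8oe library, the lone Phf8oe library is assumed to vary as the ctrl libraries do. Calls gained in those fits therefore leave out the spread within Phf8oe. The directions of all 6 called genes were kept under all 16 alternatives run, but few of these could have changed them. Filter, moderation, block and pairing settings leave the log2 fold change as it is. Where groups do not overlap, as in these 6 genes, leaving out 1 library cannot reverse it. With a single prior variance for genes of all levels, none of the 79 passed in limma, with 15 at an unadjusted p under 0.05.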

How the data were processed

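RNA of 4 libraries was sequenced as paired reads of 150 bases, per the labels. The submitters' processing notes name STAR 2.5.2b, Trimmomatic 0.36, bcl2fastq 2.20 and DESeq2, as well as Rnor_6.0 and rn6. The sources used here name no counter, annotation, strand setting or gene filter. The deposited signal values are whole numbers that the labels call raw, but their spacing showed counts divided by a size factor and rounded: 1 read was worth 0.9548 and 1.416 in Phf8oe replicates 1 and 2, and 0.8445 and 1.0176 in ctrl replicates 1 and 2. In Phf8oe replicate 2, 85 of 85 whole numbers that such scaling skips were absent. A count test was therefore not the main test.

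Genes with at least 10 in 2 or more libraries were tested with limma 3.58.1 (R 4.3.3) on log2(value + 1), with a variance trend, robust moderation and Benjamini-Hochberg adjustment over 14368 genes. Fold changes are on that scale, which understates changes of low genes. The design left 2 residual degrees of freedom. The procedure was tested on simulated data. Tables and motif searches used Python 3.11.15 and pandas 2.3.3. Genes named are those that passed, the 3 with the highest mean of each role, the smallest p of each role, list genes that passed, and others given to complete a role or list, chosen after their values were seen. Members and lists were chosen with earlier results of these data known. Promoter sequences are from RefSeq, assembly GRCr8. Alternatives covered scaling, pseudocount, filter, moderation, pairing and leaving out each library.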

Additional observations from a re-analysis of the deposited data

How the results depend on the processing

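The count of microtubule genes that passed was 6, and 0 with no variance trend, 3 with a replicate block, 12 with crossed pairing (added after seeing the data) and 0 to 11 on leaving out 1 library. It was 0 without ctrl replicate 1, 0 without ctrl replicate 2, 11 without Phf8oe replicate 1 and 10 without Phf8oe replicate 2. Over all genes the count of 1098 became 0 with no variance trend (3133 at an unadjusted p under 0.05 in limma), 373 with the replicate block, 2354 with crossed pairing, and 14 to 2103 on leaving out 1 library. Deviations of same-numbered libraries correlated at -0.126, so the replicate numbers were not taken to pair libraries. With the block, Tubb2a (adjusted p = 0.0596 in limma), Stmn1 (0.0762) and Stmn4 (0.0849) no longer passed, and Phf8 did (0.0313). Upper quartile scaling split the calls into 608 higher and 589 lower, against 430 and 668. The cause was not tested. Depth limits genes such as Tubg2, Tubb1 and Kif16b, and 2 libraries a group limit all of them.

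The median log2 fold change of -0.0388 over the 79 genes was -0.0588 with equal totals, 0.00507 with upper quartile scaling, -0.0619 with the filter at 50, and -0.0525 to -0.0143 on leaving out 1 library. Over 16 alternatives and 80 genes, Phf8 included, 1273 log2 fold changes were computed: 35 changed sign, 23 calls were lost and 26 gained. Under upper quartile scaling the sign changed for Kif19 (0.0436), Tubb2b (0.0169), Kif1bp (0.0222), Kif18b (0.0386), Kif2a (0.00507) and Dync1li1 (0.0266). It also changed for Kif19 with limma-voom (0.00065) and for Kifc3 with equal totals (-0.00979). On leaving out 1 library, genes near 0 or uneven between replicates crossed 0: Dync1li1 (-0.0694 to 0.0348), Dynll1 (-0.0577 to 0.203), Dynlt1 (-0.167 to 0.0167), Kif18b (-0.0857 to 0.0752), Kif19 (-0.0815 to 0.081), Kif1bp (-0.121 to 0.0774), Kif24 (-0.239 to 0.311), Kif26a (-0.11 to 0.69), Kif26b (-0.216 to 0.407), Kif6 (-0.0872 to 0.913), Kif9 (-0.444 to 0.34), Kifc2 (-0.212 to 0.317), Kifc3 (-0.181 to 0.202), Map2 (-0.0537 to 0.189), Stmn3 (-1.05 to 0.391), Tppp (-0.302 to 0.0812), Tppp3 (-0.461 to 0.104), Tuba1c (-0.162 to 0.0627), Tubb2b (-0.127 to 0.0735), Tubg2 (-0.082 to 1.79) and Tubgcp4 (-0.154 to 0.00647).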
